A study of Mus musculus with 6 samples.

Results

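Blood platelets are shed by megakaryocytes and stick to injured vessels through a small set of surface receptors, and the genes of 9 of these receptors were followed here in megakaryocyte–erythroid progenitors (MEPs). They were chosen by name: *Gp1ba*, *Gp1bb*, *Gp9* and *Gp5*, whose products assemble into the GPIb-IX-V complex, *Itga2b* and *Itgb3*, which encode the chains of integrin αIIbβ3, *Gp6* and *Clec1b*, which encode the collagen receptor GPVI and the podoplanin receptor CLEC-2, and *Treml1*, which encodes an α-granule membrane protein exposed on activated platelets. Of these 9 genes, 7 are among the 12101 genes of the table and all 7 were tested. *Gp6* and *Clec1b* have no row in it and were not analysed here.

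All libraries came from MEPs of adult *Nanog*-tg mice of strain CD-1. These mice carry the M2-rtTA transactivator at the *Rosa26* locus, which is active in most cell types, and a *Nanog* cDNA under a tetO promoter at the *Col1a1* locus, so both groups carry the same transgenes and differ in doxycycline (dox). The 3 dox-treated libraries are from mice given dox in the drinking water for 5 days to induce *Nanog*, and the 3 untreated libraries are from mice without dox. MEPs were sorted from bone marrow as lineage-negative, cKit+ and Sca1- cells by CD34 and CD16/32, and CD41, the protein of *Itga2b*, is not among the sorting antibodies that are named. Labels give no mouse for each replicate, so the p-values measure the spread between these libraries, which may be technical. The comparison is of MEPs with and without dox. It has no dox-treated mice without the *Nanog* transgene, so *Nanog* and dox itself cannot be told apart.

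In platelets the GPIb-IX-V complex binds von Willebrand factor and slows the cell on the vessel wall. GPVI and CLEC-2 then signal through kinases and adaptors, and αIIbβ3 switches to a state that binds fibrinogen and links platelets together. The genes for αIIb, the GPIb-IX-V subunits and GPVI are textbook targets of GATA and ETS factors in megakaryocytes. αIIb is also made earlier, in progenitors that have not yet committed to the megakaryocyte lineage.

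Expression is given as CPM, which are counts scaled to the library size the authors normalized to (0.5 reads were added to each count), and as the whole reads behind the deposited log2 values. Each library had from 11264803 to 16153600 reads on the genes listed, and 3 reads, taken as the floor of detection, were worth between 0.193 and 0.273 CPM (counting error only). *Nanog* had from 15959 to 19609 reads in the dox-treated libraries and from 1 to 13 in the untreated ones. Of the genes used for the sort, *Kit* had means of 315.6 ± 9.81 CPM with dox and 418.8 ± 81.8 CPM without (SD, n = 3), *Cd34* of 121.2 ± 54.9 and 43.2 ± 17.4 CPM, and *Fcgr3*, which encodes CD16, of 9.22 ± 2.73 and 19.5 ± 8.28 CPM. None of the 4 sort genes in the table passed (limma), and 1 was higher and 1 lower at an unadjusted p under 0.05 (15.6% and 13.6% of all genes tested). The erythroid factor *Klf1* and 13 other erythroid marker genes were in the table, summing to 6549, 6215 and 10820 CPM in dox-treated replicates 1, 2 and 3 and to 9463, 8957 and 8980 CPM in the untreated ones, so that replicates 1 and 2 lay below and replicate 3 above every untreated library. Of these 14 genes 2 fell, where 3.18% of all genes tested fell.

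The stretches before the start sites of 4 member genes are shown because these are the members whose expression was higher in every dox-treated library than in any untreated one. Groups were apart in this way for 17.7% of all genes tested, and for 18.2% in the other direction, which among the members held for *Gp1bb* alone. Each is the 250 bases ahead of the start in the direction of the gene, from RefSeq on GRCm38.p6, which is a later build than that of the expression table. Capitals mark matches on either strand to a GATA word, which is AGATAA or AGATAG or else TGATAA or TGATAG, or to the ETS word, which is GGAAG.
*Gp1ba* (chr11:70638872-70639121, plus strand): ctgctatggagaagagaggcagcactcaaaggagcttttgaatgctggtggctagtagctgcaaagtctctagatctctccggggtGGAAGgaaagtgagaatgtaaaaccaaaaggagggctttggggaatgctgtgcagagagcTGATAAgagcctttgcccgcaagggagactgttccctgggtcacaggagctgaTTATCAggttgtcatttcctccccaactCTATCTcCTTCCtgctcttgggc
*Gp9* (chr6:87777820-87778069, plus strand): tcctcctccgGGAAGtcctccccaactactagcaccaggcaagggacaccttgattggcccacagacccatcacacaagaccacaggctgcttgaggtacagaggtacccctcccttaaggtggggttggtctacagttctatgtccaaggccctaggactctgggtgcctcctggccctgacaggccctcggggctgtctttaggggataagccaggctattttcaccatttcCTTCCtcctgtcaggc
*Gp5* (chr16:30310782-30311031, minus strand): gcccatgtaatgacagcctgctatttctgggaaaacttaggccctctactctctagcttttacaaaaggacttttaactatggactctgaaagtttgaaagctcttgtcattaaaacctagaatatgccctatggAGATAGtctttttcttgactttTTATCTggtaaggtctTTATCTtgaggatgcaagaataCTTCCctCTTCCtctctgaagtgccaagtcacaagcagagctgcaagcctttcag
*Itga2b* (chr11:102469884-102470133, minus strand): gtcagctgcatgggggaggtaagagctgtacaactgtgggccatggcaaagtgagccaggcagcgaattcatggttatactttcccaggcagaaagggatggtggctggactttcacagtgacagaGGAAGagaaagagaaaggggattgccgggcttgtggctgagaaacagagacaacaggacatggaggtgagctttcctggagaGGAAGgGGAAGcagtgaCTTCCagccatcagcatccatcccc
The *Gp1ba* and *Gp5* stretches each held 3 GATA and 2 ETS matches. The *Gp9* stretch held 2 ETS matches and the *Itga2b* stretch 4, with 0 matches to these GATA words in either. Of the members not shown, *Gp1bb* had 1 GATA and 2 ETS matches, *Treml1* had 0 and 1, and *Gp6* and *Clec1b* each had 1 and 0. Of 32851 stretches of the same length in the RefSeq table, 26.5% held a GATA match, 64.1% an ETS match and 15.8% both. A match of letters is a description of the sequence and does not show binding. RefSeq stretches were at hand for 8 of the 9 genes, and the one without was *Itgb3*.

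Most GPIb-IX-V subunit genes were higher in dox-treated MEPs, by different amounts, and *Gp1bb* lay on the other side. *Gp9* and *Gp1ba* rose, *Gp5* had the highest level per length of the complex in each library and the smallest difference, and *Gp1bb* was measured from few reads. At an adjusted p under 0.05 (limma, over 12088 genes) 2 of the 7 members rose and 0 fell, against 7.77% of all genes tested that passed in either direction, 4.59% that rose and 3.18% that fell. At an unadjusted p under 0.05 (limma) 5 members were higher, against 15.6% of all genes tested. On the lower side, with 13.6% of all genes, *Gp1bb* alone was under that p, and it met the filter only through the untreated libraries.

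*Gp9*, which encodes the small GPIX subunit, lies on chromosome 6 of NCBIM37 from 87728130 to 87729756 on the plus strand, with 1 annotated transcript. It had 131, 134 and 133 reads in dox-treated replicates 1, 2 and 3, and 50, 38 and 56 reads in the untreated replicates. The dox-treated libraries were all above the untreated ones and close to each other. *Gp9* averaged 9.42 ± 0.758 CPM (SD, n = 3) in the dox-treated and 3.97 ± 1.15 CPM (SD, n = 3) in the untreated MEPs. This is 2.44-fold, or 1.28 on the log2 scale with a standard error of 0.23 (adjusted p = 0.032, limma). Leaving out dox-treated replicate 1 or 2 or untreated replicate 1 or 2 took the adjusted p (limma) to 0.111, 0.119, 0.092 and 0.056, with log2 fold changes between 1.07 and 1.30.

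*Gp1ba* encodes GPIbα, the subunit that holds the binding site for von Willebrand factor, and lies on chromosome 11 of NCBIM37 (70452624 to 70456328, plus strand). Its reads came to 329, 359 and 260 with dox, again by replicate, and to 161, 161 and 123 without. Dox-treated replicate 3 was the lowest of its group and was still above every untreated library. The means were 22.6 ± 5.23 CPM (SD, n = 3) in the dox-treated and 11.9 ± 0.662 CPM (SD, n = 3) in the untreated MEPs. The difference was 1.86-fold, or 0.90 on the log2 scale with a standard error of 0.19 (adjusted p = 0.049, limma). The call is close to the threshold and was lost when any library other than dox-treated replicate 3 was left out, with adjusted p (limma) between 0.113 and 0.159. Among the fits of all libraries without a block, it was also lost with voom precision weights, with scaling to total reads and with median-of-ratios size factors, at adjusted p (limma) of 0.051, 0.058 and 0.0503.

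*Gp5* encodes GPV, the subunit that thrombin cleaves, and lies on chromosome 16 of NCBIM37 from 30307772 to 30310865 on the minus strand. Its reads numbered 712, 713 and 972 with dox, in order of replicate, against 452, 582 and 454 without. In contrast to *Gp1ba*, its highest value was that of dox-treated replicate 3, at 62.4 CPM against 52.5 and 53.1 CPM. *Gp5* averaged 56.0 ± 5.56 CPM (SD, n = 3) in the dox-treated and 39.9 ± 4.14 CPM (SD, n = 3) in the untreated MEPs. The groups did not overlap, and the log2 fold change of 0.49 (95% confidence interval 0.17 to 0.82) missed the threshold (adjusted p = 0.076, limma).

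*Gp1bb* encodes GPIbβ, which is joined to GPIbα by disulfide bonds, and lies on chromosome 16 of NCBIM37 from 18620412 to 18622496 on the minus strand. Only 9, 6 and 15 reads came from the dox-treated replicates, and 37, 18 and 14 from the untreated ones. All dox-treated libraries were below the untreated ones in CPM, at 0.699, 0.484 and 0.995 against 2.92, 1.37 and 1.32. On the log2 scale the difference was -1.32 with a standard error of 0.40 (adjusted p = 0.096, limma), which did not pass. *Gp1bb* reached 1 CPM only in the untreated libraries and passed the filter through them alone. Of its annotated exon bases 31.5% are shared with *Sept5*, a septin gene on the same strand, so reads of the pair are hard to assign. *Sept5* had 7, 10 and 7 reads with dox and 64, 29 and 31 reads without, and it too met the filter only through the untreated libraries, so its fitted log2 fold change of -2.41 (adjusted p = 0.019, limma) is given as a description. The part of *Sept5* in the *Gp1bb* values was not tested.

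**Figure D1:**
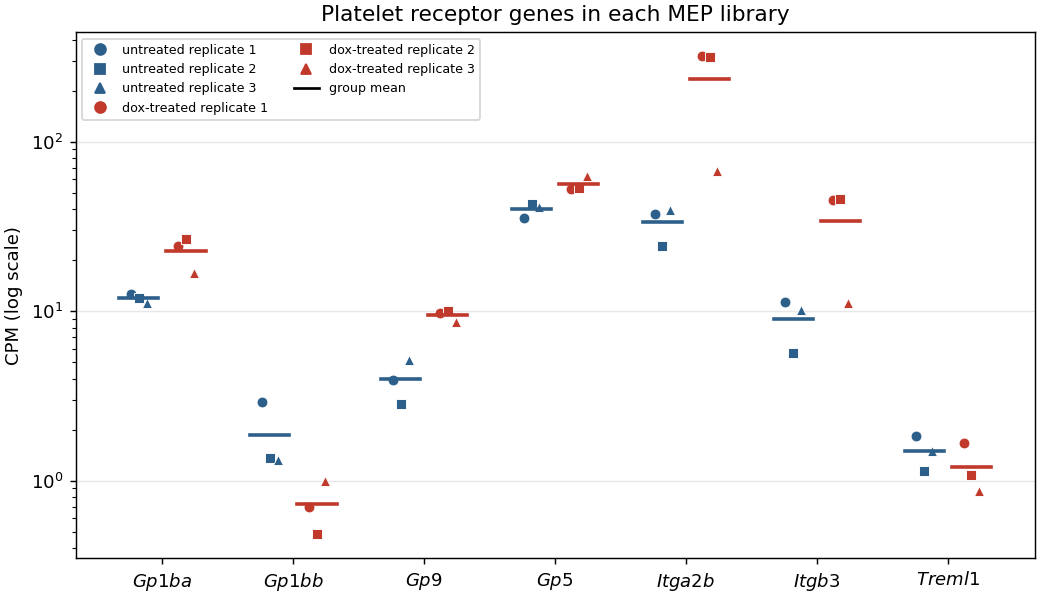
CPM of each of the 7 listed member genes (log axis) in the 3 untreated libraries (blue) and the 3 dox-treated libraries (red), with horizontal lines at the group means and a marker shape for each replicate number. *Itga2b* and *Itgb3* of dox-treated replicate 3 lie far below dox-treated replicates 1 and 2, at 66.9 and 11.2 CPM.

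Set per length, the summed level of the complex's genes was higher in each dox-treated library than in any untreated one, and *Gp9* made up more of it. CPM was divided by the kilobases of the longest annotated transcript of each gene, from 0.811 kb for *Gp9* to 3.486 kb for *Gp1ba*. The sum over the 4 subunit genes was 43.2, 44.5 and 44.3 CPM per kb in the dox-treated replicates and 26.0, 27.3 and 29.1 CPM per kb in the untreated ones. These sums were nearly alike within each group, and dox-treated replicate 3 did not stand apart in them. *Gp5* made up 58.0 ± 5.37% (SD, n = 3) of the summed level with dox and 66.0 ± 5.30% (SD, n = 3) without, with groups that overlapped. *Gp9* made up 26.4 ± 2.24% (SD, n = 3) and 17.7 ± 4.52% (SD, n = 3), and its share was higher in each dox-treated library (23.8% to 27.8%) than in any untreated one (12.9% to 21.8%). *Gp1ba* made up 14.7 ± 3.44% (SD, n = 3) and 12.5 ± 1.38% (SD, n = 3), with groups that overlapped. The share of *Gp1bb* was between 0.589% and 1.22% with dox and between 2.45% and 6.06% without, within the limit set by *Sept5*. With 3 libraries against 3 a two-sided exact permutation test cannot give a p under 0.1, and no test was made on these shares.

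The integrin genes had the largest fitted changes among the members, and those rested mostly on dox-treated replicates 1 and 2. *Itga2b* encodes αIIb (CD41) and lies on the minus strand of chromosome 11 (102314611 to 102331436, NCBIM37). Dox-treated replicates 1, 2 and 3 gave 4333, 4219 and 1042 reads of it, and the untreated replicates 482, 326 and 431. Dox-treated replicates 1 and 2 were at 319.1 and 314.1 CPM and replicate 3 at 66.9 CPM, all above the untreated range of 24.1 to 39.3 CPM. The log2 fold change was 2.52 (95% confidence interval 0.94 to 4.10, adjusted p = 0.069, limma), which did not pass. Without dox-treated replicate 3 the log2 fold change was 3.27 (adjusted p = 0.0051, limma).

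*Itgb3* encodes the β3 chain and lies on the plus strand of the same chromosome (104469370 to 104531790). Dox-treated replicates 1, 2 and 3 gave 614, 616 and 174 reads of it, and the untreated replicates 145, 76 and 111. Here the groups overlapped, since dox-treated replicate 3 (11.2 CPM) lay just under the 11.3 CPM of untreated replicate 1. The dox-treated MEPs averaged 34.1 ± 19.8 CPM (SD, n = 3) and the untreated ones 9.04 ± 2.99 CPM (SD, n = 3), with a difference of 1.72 on the log2 scale (95% confidence interval 0.22 to 3.23, adjusted p = 0.131, limma). Without dox-treated replicate 3 it was 2.40 (adjusted p = 0.015, limma). αIIb reaches the cell surface only as a dimer with β3, and the *Itga2b* level per kb was 11.8, 11.4 and 9.96 times that of *Itgb3* in the dox-treated replicates and 5.53, 7.11 and 6.45 times in the untreated ones. The ratio was higher in every dox-treated library, replicate 3 included.

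**Figure D2:**
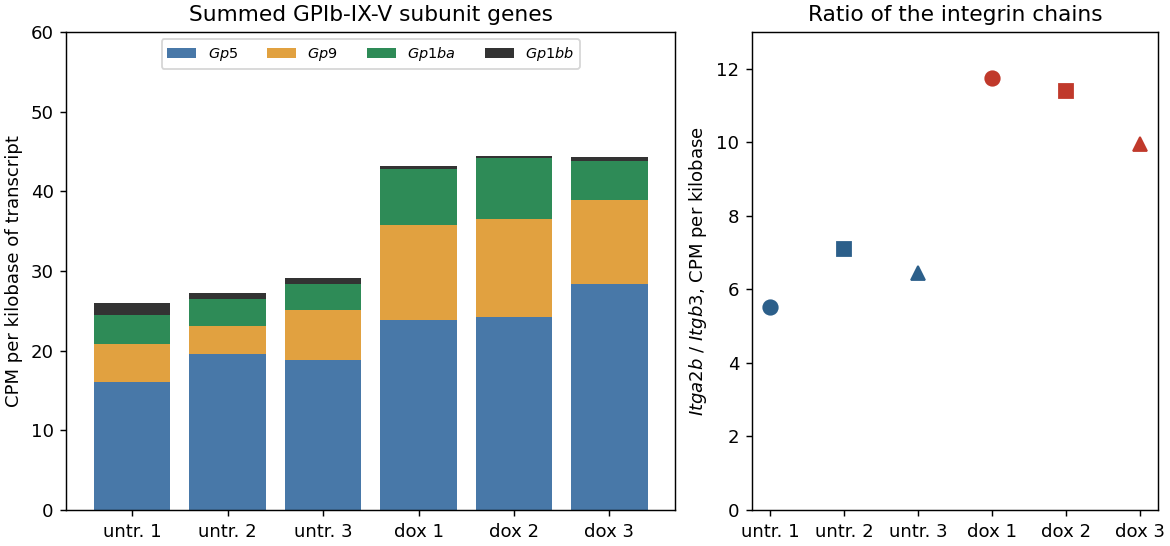
Left, CPM per kilobase of longest transcript of the GPIb-IX-V subunit genes stacked for each untreated (untr.) and dox-treated (dox) library; right, the ratio of *Itga2b* to *Itgb3* per kilobase in the same libraries. The stacked sums lie between 26.0 and 29.1 without dox and between 43.2 and 44.5 with dox, and the ratio lies between 5.53 and 7.11 without and between 9.96 and 11.8 with dox.

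*Treml1*, which encodes TLT-1, lies on chromosome 17 of NCBIM37 from 48499241 to 48506499 and was near the lower limit of the table. It had 22, 14 and 13 reads with dox and 23, 15 and 16 without, and the groups overlapped. The log2 fold change was -0.34 (95% confidence interval -1.05 to 0.37, adjusted p = 0.46, limma), an interval that holds changes in either direction. *Clec1b*, for which there is no value, shares its locus on chromosome 6 of NCBIM37 (129347315 to 129359353) with *Clec1a*, a related lectin gene on the opposite strand with 0 exon bases in common. *Clec1a* had 84, 129 and 36 reads with dox and 5, 2 and 4 without. It met the filter only through the dox-treated libraries, so its fitted log2 fold change of 4.03 (adjusted p = 0.021, limma) is a description, and these reads say nothing of *Clec1b*.

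Ordered by level per kb, the untreated MEPs had *Gp5* (18.2 ± 1.88, SD, n = 3) first, then *Itga2b* (9.79 ± 2.41), *Gp9* (4.90 ± 1.42), *Gp1ba* (3.42 ± 0.190), *Itgb3* (1.58 ± 0.522), *Treml1* (1.19 ± 0.273) and *Gp1bb* (1.01 ± 0.492). The values of *Itgb3*, *Treml1* and *Gp1bb* overlapped. Those of *Gp9* and *Gp1ba* overlapped between libraries too. Within untreated replicates 1, 2 and 3 *Gp9* was 1.34, 1.02 and 1.97 times *Gp1ba*. The 1.02, from 38 *Gp9* reads, does not order the pair. Any order per kb depends on the use of the longest annotated transcript of each gene. With dox *Itga2b* came first at 67.9 ± 42.0 CPM per kb (SD, n = 3), ahead of *Gp5* at 25.5 ± 2.53, but in dox-treated replicate 3 *Gp5* (28.4) was above *Itga2b* (19.5). *Gp1ba* (6.48 ± 1.50) and *Itgb3* (5.96 ± 3.46) could not be told apart with dox. Among all genes with an annotated length, mean *Itga2b* expression per kb moved from the percentile of 47.4 without dox to 91.2 with dox, and that of *Gp5* from 63.8 to 73.4. The 91.2 belongs to a mean over 92.8, 91.4 and 19.5 CPM per kb in dox-treated replicates 1, 2 and 3.

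Dox-treated replicate 3 lay far from dox-treated replicates 1 and 2 for some members and near them for others. Against the mean log2 level of those replicates it was 4.73-fold lower for *Itga2b*, 4.07-fold lower for *Itgb3* and 1.52-fold lower for *Gp1ba*. For *Gp9* it was 1.15-fold lower and for *Gp5* it was higher. Of all genes tested, 1.54% differed between these libraries by as much as *Itga2b* or more and 2.23% by as much as *Itgb3*, against 68.2% for *Gp9* and 62.5% for *Gp5*. The median difference over all genes tested was -0.0024 on the log2 scale. *Nanog* had 15959 reads in this library, or 1024 CPM, against 1256 and 1460 CPM in dox-treated replicates 1 and 2. Without dox-treated replicate 3, 4 members (*Itga2b*, *Itgb3*, *Gp9* and *Gp1ba*) rose, where 14.9% of all genes tested rose and 14.0% fell. *Gp1bb* also passed there, on the lower side, but it had met the filter through the untreated libraries alone and nothing is read from that call. What sets replicate 3 apart was not tested.

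**Figure D3:**
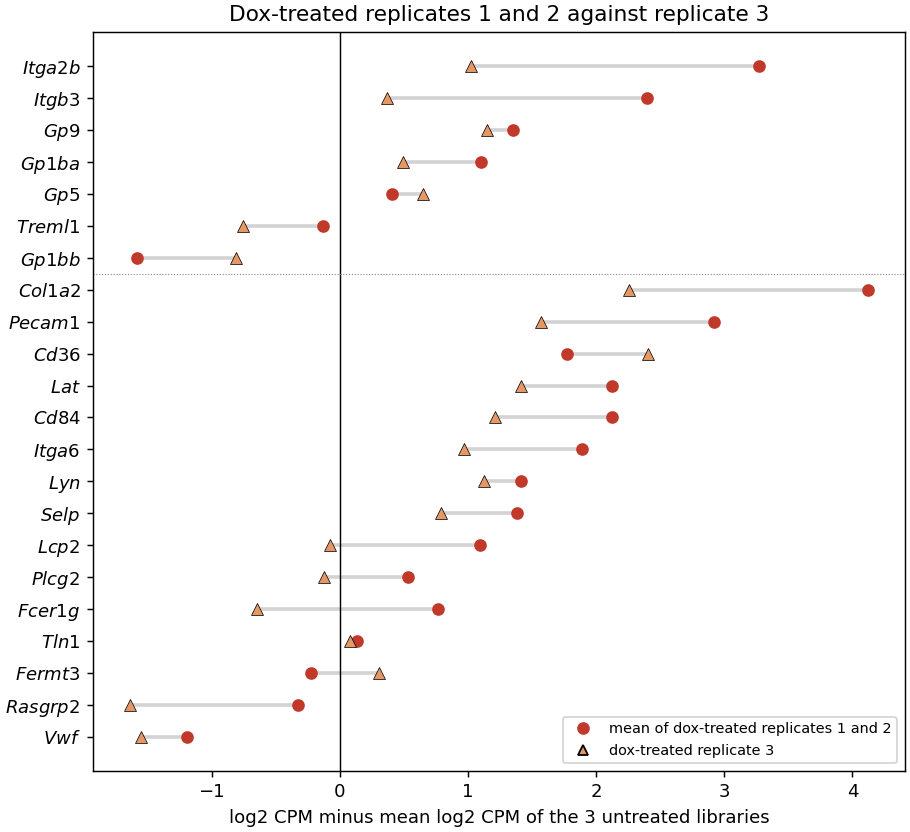
Log2 CPM of the mean of dox-treated replicates 1 and 2 (circles) and of dox-treated replicate 3 (triangles), each minus the mean of the 3 untreated libraries, for the member genes above the dotted line and partner genes below it. *Itga2b* and *Itgb3* show the widest gaps among the members, 2.24 and 2.02, and *Gp9* and *Gp5* the narrowest.

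The receptors work with ligands, other surface proteins and a signalling chain, which were read from lists of known platelet biology. Over 4 such lists 70 gene IDs were tested, 2 of them for *Cd47*. Of the 70, 9 rose and 1 fell, where 4.59% of all genes tested rose and 3.18% fell. The count that rose was 22 without dox-treated replicate 3, where 14.9% of all genes rose. It was from 0 to 2 without any other library, where from 92 to 143 of the 12088 genes rose. Among 29 genes of signalling close to the receptors 2 rose and 0 fell (limma, adjusted p under 0.05), with a median log2 fold change of 0.01 where the median of all genes tested was -0.03. *Lyn*, a Src family kinase that phosphorylates the activation motifs of GPVI signalling, rose from 35.2 ± 6.02 to 87.3 ± 11.6 CPM (SD, n = 3; adjusted p = 0.016, limma). *Lat*, the membrane adaptor of the same pathway, rose from 5.32 ± 2.18 to 19.0 ± 5.22 CPM (SD, n = 3; adjusted p = 0.041, limma). Both were higher in each dox-treated library than in any untreated one.

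Other parts of that chain did not pass. *Fcer1g*, whose product is the signalling chain of GPVI and also of the IgE receptor, had 168, 131 and 64 reads with dox against 95, 75 and 72 without, with a fitted 0.29 on the log2 scale (adjusted p = 0.66, limma). The adaptor gene *Lcp2* (SLP-76) was 0.70 higher on the log2 scale (adjusted p = 0.28, limma), with groups that overlapped, and the phospholipase gene *Plcg2* 0.31 higher (adjusted p = 0.56, limma). The genes that serve the switching of αIIbβ3 to its binding state were *Rasgrp2*, at -0.76 (adjusted p = 0.35, limma), *Fermt3* (kindlin-3), at -0.05 (adjusted p = 0.87, limma), and *Tln1* (talin-1), at 0.12 (adjusted p = 0.49, limma). *Tln1* was at 720.9 ± 25.0 CPM with dox and 666.0 ± 51.3 CPM (SD, n = 3) without.

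For other platelet surface proteins 24 gene IDs of 23 genes were tested, as *Cd47* has 2. Of these IDs 6 rose and 0 fell (4.59% and 3.18% of all genes), with a median log2 fold change of 0.67. They include *Cd36*, a thrombospondin receptor, at 6.54 ± 0.943 CPM without dox and 26.3 ± 7.09 CPM with it (SD, n = 3; adjusted p = 0.012, limma), and highest, with 536 reads, in dox-treated replicate 3. By log2 fold change, *Cd84*, a SLAM family receptor, rose by 1.82 (adjusted p = 0.027, limma), *Pecam1* (CD31) by 2.47 (adjusted p = 0.031, limma), *Itga6*, a laminin receptor chain, by 1.58 (adjusted p = 0.041, limma) and *Selp*, the P-selectin of α-granules, by 1.19 (adjusted p = 0.041, limma). Unlike *Cd36*, these 4 genes were lowest in dox-treated replicate 3 of their group, from 1.51-fold (*Selp*) to 2.55-fold (*Pecam1*) below replicates 1 and 2, and still above every untreated library.

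Values were at hand for only 3 of the 12 ligand genes, of which 1 rose and 1 fell, where 4.59% of all genes tested rose and 3.18% fell. *Vwf*, the ligand of GPIbα, which megakaryocytes also store, fell from 37.2 ± 4.72 to 15.1 ± 3.01 CPM (SD, n = 3), which was -1.31 on the log2 scale (adjusted p = 0.018, limma), while its receptor gene *Gp1ba* rose. *Col1a2*, which encodes a collagen I chain, rose from 6.24 ± 1.99 to 79.3 ± 44.7 CPM (SD, n = 3; adjusted p = 0.026, limma), with 1301, 1522 and 447 reads in dox-treated replicates 1, 2 and 3. Of 14 transcription factor genes of megakaryocytes 0 passed in either direction (limma). At an unadjusted p under 0.05 (limma) 3 were higher and 4 lower (15.6% and 13.6% of all genes). The groups did not overlap for 3 on the higher side and 7 on the lower (17.7% and 18.2% of all genes). The log2 fold changes ran from -0.51 (*Gfi1b*) to 1.46 (*Gata2*).

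**Figure D4:**
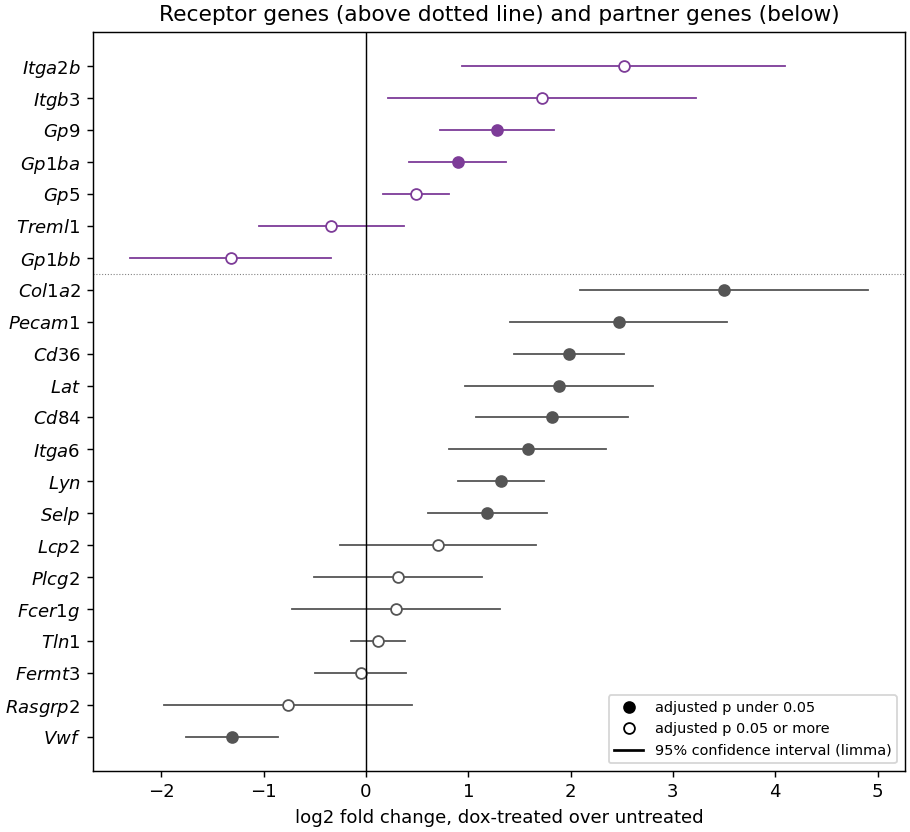
Log2 fold change of dox-treated over untreated MEPs with its 95% confidence interval (limma, 3 libraries a group) for the member genes above the dotted line and partner genes below it, filled where the adjusted p is under 0.05. *Gp9* and *Gp1ba* are the filled members, at 1.28 and 0.90, and *Vwf* is the filled gene on the negative side, at -1.31.

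Markers of other cell types were read in the same way, with 4.59% of all genes tested rising and 3.18% falling as the background of each count. The sort was for lineage-negative cells, which is meant to remove mature lymphoid and granulocytic cells. The granulocyte–monocyte list of 17 genes, all in the table, summed to between 577.4 and 859.1 CPM with dox and between 2586 and 5958 CPM without, and 11 of its genes fell. The mast cell list, with 5 of 11 genes in the table of which 3 rose, summed to between 560.5 and 758.1 CPM with dox and between 400.7 and 630.5 CPM without. Much of that sum was *Kit*, a gene of the sort, and the other 4 genes summed to 438.3, 366.7 and 237.8 CPM with dox and 109.9, 73.2 and 144.9 CPM without, with groups apart. The endothelial list, with 5 of 6 of which *Tek* and *Pecam1* rose, summed to 163.5, 173.6 and 62.1 CPM in the dox-treated replicates and 26.3, 13.9 and 27.3 CPM in the untreated ones. The lymphoid list, with 4 of 8 of which 0 passed (limma, 0 also at an unadjusted p under 0.05), stayed at or below 16.9 CPM in every library. Megakaryocyte granule and cytoskeleton markers, with 10 of 12 in the table and neither *Ppbp* nor *Tubb1* among them, had 3 genes that rose and 1 that fell and summed to 306.7, 325.4 and 197.8 CPM in the dox-treated replicates and 166.3, 97.6 and 164.9 CPM in the untreated ones. The stem and early progenitor list, with 6 of 8 of which 0 passed (limma, 3 higher at an unadjusted p under 0.05), summed to 251.4, 198.7 and 109.5 CPM with dox and 98.3, 41.4 and 83.8 CPM without. Without *Cd34*, a gene of the sort, it summed to 79.7, 69.5 and 46.7 CPM with dox and 40.6, 17.6 and 35.6 CPM without. The megakaryocyte markers share *Selp*, *F2rl2* and *Vwf* with the partner lists, the endothelial list shares *Pecam1* and *Esam*, and *Kit*, *Cd34* and *Fcgr3* of the sort stand in the mast cell, stem and granulocyte–monocyte lists. In the mast cell list without *Kit* and in the endothelial, megakaryocyte and stem lists, as for *Itga2b*, dox-treated replicate 3 was the lowest of its group and above the untreated libraries, while in the erythroid list it was the highest of all. The part of any of these cells in the receptor values was not tested, and in bulk RNA a larger share of such cells and more of the transcript in each cell cannot be told apart.

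The genes whose profile over the 6 libraries was closest to that of the members were found among the 9993 genes that averaged 5 CPM or more. Likeness was the root mean square difference between log2 values centred on each gene's mean and the median centred profile of the 7 members, over libraries that share the same dox contrast. The 6 closest genes were *Sgcb*, *Slco3a1*, *Arhgef11*, *Pi4k2a*, *Ptk2b* and *Ece1*, with differences from 0.044 to 0.076. The members themselves lay further off, from 0.147 for *Gp1ba* to 1.25 for *Gp1bb*. The closest genes had log2 fold changes from 0.68 to 0.80 and adjusted p (limma) from 0.097 to 0.165. *Itgb3* was the member nearest to *Itga2b*, at 0.420, and *Gp1bb* the farthest, at 2.20.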

How the data were processed

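RNA was sequenced from MEPs of adult *Nanog*-tg mice, 3 libraries with dox and 3 without. Per the labels and the methods of the study, the authors trimmed adapters (Cutadapt), aligned and counted against NCBIM37 transcripts (RSEM) and normalized with limma. The deposited values are log2 CPM, with 0.5 reads added to each count, for 12101 genes, each with over 1 CPM in at least 2 libraries. The filter behind the table and the use of strand are not given in the sources used here. Each column holds 1 library.

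Columns were matched to samples by their labels. Whole reads were worked back by taking the lowest read count that made the values of a library whole, and 100% of values came out whole within 0.001 reads. Differences were tested with limma (version 3.58.1, R 4.3.3; lmFit, then eBayes, without block or weights) on the 12088 genes that reached 1 CPM in 3 or more libraries, with p adjusted by Benjamini–Hochberg and a threshold of 0.05. A fold change with 0.5 reads added understates that of genes with few reads. The fit was tested on simulated data, and was repeated with other filters, scalings, weights and a replicate block, and without each library in turn. Symbols and positions came from the NCBIM37 annotation, which matched 12067 gene IDs; 2 IDs carry the symbol *Cd47* and were both kept. Figures were drawn with matplotlib 3.10.9 in Python 3.11.15.

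The members, gene lists, named genes and alternatives were chosen with earlier results of these data known. Genes named were the members, *Nanog*, up to 5 genes per partner list past the threshold with the smallest p, partner genes by role, genes that overlap a member and the 6 of most similar profile. Not every gene that this rule names is reported here.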

Additional observations from a re-analysis of the deposited data

How the results depend on the processing

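All 7 members kept the sign of their log2 fold change under every alternative that could be fitted, 17 for each member and 16 for *Gp1bb* and *Treml1*, which a mean of at least 5 CPM removed. The range was 0.76 to 1.10 for *Gp1ba*, 0.98 to 1.49 for *Gp9*, 0.40 to 0.60 for *Gp5*, 2.14 to 3.27 for *Itga2b*, 1.38 to 2.40 for *Itgb3*, -1.59 to -0.95 for *Gp1bb* and -0.60 to -0.13 for *Treml1*. The adjusted p (limma) of *Gp9* was under 0.05 in 11 of 17 and that of *Gp1ba* in 8 of 17. It was under 0.05 for *Itga2b* in 6, for *Gp5* in 4, for *Itgb3* in 3, for *Gp1bb* in 2 and for *Treml1* in 0. The cause of these shifts was not tested.

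Of the members 4 rose where limma fitted a mean-variance trend, 5 under array quality weights and 1 under median-of-ratios size factors, and the count that fell was 1 (*Gp1bb*, which met the filter through the untreated libraries alone) with array quality weights. Of the partner genes 15 rose with the trend, and 26 rose and 9 fell with array quality weights. Over all genes 909 rose and 747 fell with the trend, 2515 and 2601 with array quality weights, and 576 and 372 with median-of-ratios size factors. Leaving out a library gave from 0 to 4 members that rose and from 0 to 1 that fell, from 0 to 22 and from 0 to 2 partner genes, and from 92 to 1801 and from 36 to 1687 of all genes. The highest counts were those without dox-treated replicate 3, and without any other library at most 1 member was called. Scaling to total reads moved the median log2 fold change of all genes from -0.03 to 0.08, and array quality weights and scaling to total reads took the share of calls that rose from 59.1% to 49.2% and 68.8%.

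Under a replicate block, which fits the replicate number as a term, 0 members and 0 partner genes passed in either direction, and 53 of all genes rose and 29 fell, with 2498 at an unadjusted p under 0.05. Same-numbered libraries deviated from their group means with correlations of 0.018, -0.121 and -0.299 across genes, and 0 of the 3 dox-treated libraries correlated best with its own number, so the numbers were not taken to pair the samples. The adjusted p (limma) under the block was 0.114 for *Gp1ba* and 0.111 for *Gp9*. With the block and voom precision weights 3 members rose, where 575 of the 12088 genes rose and 351 fell. The adjusted p (limma) of *Gp9* was 0.059 in that fit. *Gp1bb* and *Treml1* had 37 reads or fewer in every library, so their values carry the widest relative counting error among the members.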

Other observations

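2 platelet surface genes that missed the threshold had larger log2 fold changes, over all 6 libraries, than any of the 7 receptor genes tested (2.52 for *Itga2b*), and were picked out after their values were seen. *F11r*, which encodes the junctional adhesion molecule JAM-A, had 207, 257 and 36 reads with dox, in order of replicate, against 13, 10 and 13 without, a difference of 3.14 ± 0.81 (SE) on the log2 scale (adjusted p = 0.070, limma). *F2rl2*, which encodes the thrombin receptor PAR3, had 263, 294 and 76 reads with dox and 29, 9 and 24 without, a difference of 3.06 ± 0.74 (SE) on the log2 scale (adjusted p = 0.060, limma). In both genes all dox-treated libraries were above the untreated ones and dox-treated replicate 3 was the lowest of its group, as for *Itga2b*.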
